A study of Homo sapiens with 9 samples.

Results

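The genes described here are those of human chromosome 20 around JAG1, the gene knocked out in the study. The count tables held 56505 gene symbols, of which 1342 lay wholly on chromosome 20. Leaving out JAG1, the 428 of them with at least 90 counts summed over the 9 libraries were kept and ordered by their first start, 125 on the short arm (20p, starting below 28 Mb) and 303 on the long arm (20q). Just inside the limit were GNRH2 (90 counts), RP5-967N21.11 (91) and RP1-63M2.7 (92), and just outside were ACTL10 (88), RP5-1125A11.7 (87) and CST2 (86). By GENCODE 29, 358 of the genes were protein-coding, 44 were of another type and 26 had no match. RNA-seq was made from MDA-MB-231-D3H2LN cells, a metastatic derivative of the triple-negative breast cancer line MDA-MB-231, in 3 groups of 3 libraries. The wild-type group was the line itself, with no knockout. In clone 1 and clone 2, labelled E and F, cells had received Cas9 protein with guides against 2 places in a JAG1 exon, had been grown up from single cells and were described as homozygous knockouts. All 3 groups grew in the same medium with serum. Each knockout group was 1 clone, and the labels do not call its 3 libraries separate cultures. The p-values therefore reflect the spread between libraries alone, which may be technical. A difference of 1 clone from wild type cannot be told apart from a difference that the founding cell of that clone already had.

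Chromosome 20 carries JAG1, a transmembrane ligand of Notch receptors, in a stretch of 20p with few genes. Breast cancers often gain copies of 20q, which holds cell division, transcription and survival genes such as AURKA, UBE2C and BCL2L1, and breast cancer lines often carry an abnormal number of chromosomes. When the copy number of a chromosome arm differs between cells, the transcripts of many of its genes tend to differ a little in the same direction. The counts used here measure transcripts, and copy number was not measured.

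Promoter sequences are shown for 3 genes that the results turn on. APMAP and PYGB lie at the centromeric end of 20p, where clone 1 had its lowest values, and LAMA5 lies near the end of 20q and was lower in both clones. Each line gives the 250 bases before the gene's start in RefSeq on GRCh38.p14, read 5′ to 3′ on the gene's own strand, with CG dinucleotides in capitals. APMAP is on the minus strand (chr20:24992752-24993001), PYGB on the plus strand (chr20:25247835-25248084) and LAMA5 on the minus strand (chr20:62367313-62367562).
APMAP: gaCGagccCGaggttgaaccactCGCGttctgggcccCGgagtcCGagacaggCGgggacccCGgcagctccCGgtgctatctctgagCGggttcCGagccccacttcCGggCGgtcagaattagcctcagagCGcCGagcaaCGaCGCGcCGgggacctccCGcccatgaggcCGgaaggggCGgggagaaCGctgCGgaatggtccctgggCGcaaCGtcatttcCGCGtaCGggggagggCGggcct
PYGB: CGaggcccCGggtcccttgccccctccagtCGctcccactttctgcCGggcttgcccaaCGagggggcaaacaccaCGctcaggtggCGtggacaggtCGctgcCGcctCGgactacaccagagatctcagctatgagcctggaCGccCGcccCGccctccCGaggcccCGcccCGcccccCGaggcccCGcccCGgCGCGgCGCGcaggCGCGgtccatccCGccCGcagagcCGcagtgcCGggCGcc
LAMA5: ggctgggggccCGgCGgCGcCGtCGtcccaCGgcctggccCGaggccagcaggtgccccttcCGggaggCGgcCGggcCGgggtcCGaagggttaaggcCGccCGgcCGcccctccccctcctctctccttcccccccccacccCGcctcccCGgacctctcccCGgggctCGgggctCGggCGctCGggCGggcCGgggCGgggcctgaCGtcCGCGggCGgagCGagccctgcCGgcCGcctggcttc
All 3 are rich in CG, with 30 CG dinucleotides for APMAP, 30 for PYGB and 32 for LAMA5. Over windows of 300 bases (250 before to 50 after the start), the median was 29 for the 301 chromosome 20 genes with an entry and 14 for all 27305 promoters of the table. The letters GTGGGAA, a core of the binding site of RBPJ, the DNA-binding partner of Notch, were searched on both strands. They stood in 4.98% of the chromosome 20 promoters and 6.28% of all promoters. The chromosome 20 genes were kept by their counts, while all promoters had no such filter, so the sets are unlike. They were in 1 of the 63 promoters of genes lower in clone 1 and 0 of the 24 promoters of genes higher in clone 2. Between the clones, they were in 5 of the 146 promoters of genes higher in clone 2 (3.42%) and 3 of the 19 of genes lower in clone 2 (15.8%), above the share of all promoters. None of the 3 windows shown held them, which says only that these letters are not there.

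Library totals ran from 16890890 to 22456164 counts. JAG1 itself (chr20:10637684-10674107, GRCh38, minus strand) had 246, 161 and 181 CPM (library-scaled counts) in wild type, 110, 80.8 and 92.3 in clone 1 and 76.1, 68.1 and 56.5 in clone 2. Its log2 fold change was −1.05 in clone 1 (adjusted p = 0.00312) and −1.55 in clone 2 (adjusted p = 0.00013), and counts over the whole gene do not resolve the cut exon. VIM, CD44 and KRT18, markers of this mesenchymal line, ran from 111 to 2301 CPM, ERBB2 from 75.3 to 98.5 and the epithelial marker EPCAM from 11.5 to 25.4, while ESR1, PGR and CDH1 stayed at or below 1.29 CPM. VIM separated the groups without overlap, at 1040 to 1536 CPM in wild type, 770 to 926 in clone 1 and 1773 to 2301 in clone 2, as did KRT18 (185 to 263, 111 to 161 and 271 to 370) and, in the other order, EPCAM (16.7 to 19, 21.8 to 25.4 and 11.5 to 13.7). Of 7 markers of other cells, CD3E was at 0 in all 9 libraries, PTPRC, CD68, VWF and DCN did not pass 1.31 CPM, and PECAM1 (1.80 to 5.23 CPM) and COL1A1 (11.8 to 35.6 CPM) were detected. Mitochondrial transcripts took 2.82 ± 1.08% of wild-type counts, 3.89 ± 1.41% in clone 1 and 1.33 ± 0.53% in clone 2 (SD, n = 3 each), and the part of these and of the markers in the results was not tested. In bulk RNA, fewer cells with a transcript and less of it per cell cannot be told apart.

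Genes of both arms were lower in clone 1, and in clone 2 the arms went opposite ways, 20q higher and 20p slightly lower. For each library, the level of an arm was taken as the median over its genes of the log2 CPM relative to the mean of the 3 groups, less the same median over genes of the other chromosomes. On 20q this level was 0.04, 0.03 and 0.00 in wild type, −0.23, −0.27 and −0.24 in clone 1 and 0.21, 0.21 and 0.20 in clone 2. The 3 groups did not overlap, and the SD within a group was at most 0.022 (n = 3). On 20p it was 0.15, 0.13 and 0.14 in wild type, −0.19, −0.16 and −0.18 in clone 1 and 0.01, 0.02 and 0.02 in clone 2. Here clone 2 lay between the other groups, again with no overlap. As shares of all counts, 20q genes held 2.24 ± 0.026% in the wild-type group, 1.84 ± 0.033% in clone 1 and 2.53 ± 0.036% in clone 2, and 20p genes held 0.694 ± 0.023%, 0.574 ± 0.01% and 0.589 ± 0.0092% (SD, n = 3 each).

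**Figure D1:**
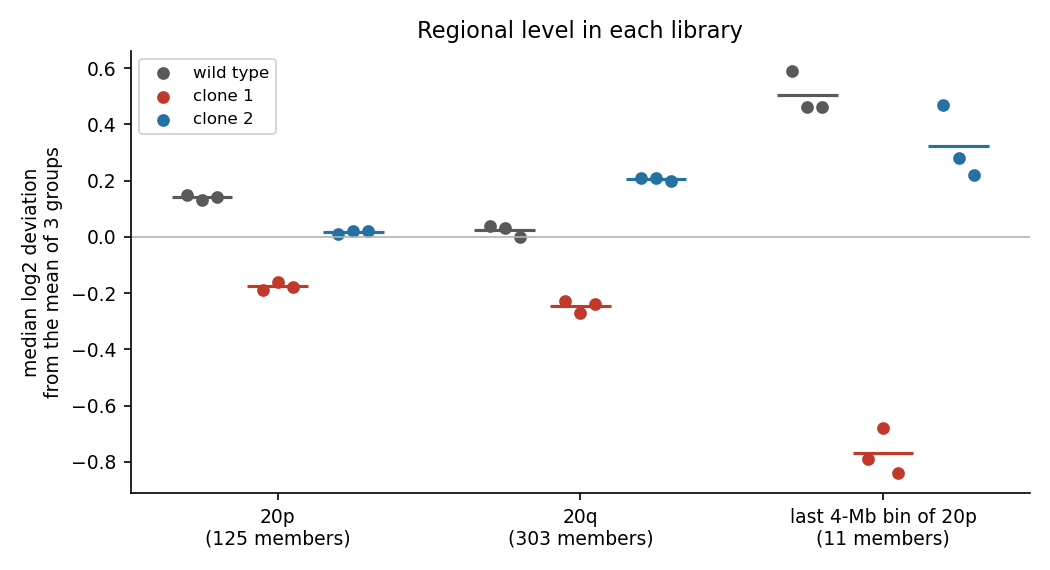
Median log2 deviation of chromosome 20 genes from the mean of the 3 groups, less that of the other chromosomes, in each library (points; lines are group means), for 20p, 20q and the last 4-Mb bin of 20p. The 3 clone 1 libraries are lowest in each region, and the 3 clone 2 libraries are highest on 20q, at 0.20 to 0.21.

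The median gene of 20p differed by −0.31 (log2) between clone 1 and wild type and that of 20q by −0.28, which are ratios of 0.808 and 0.825. Of the 125 genes of 20p, 97 were below the median of the other chromosomes, as were 210 of the 303 genes of 20q. In clone 2 the median was −0.15 on 20p (ratio 0.900), with 83 genes below, and 0.17 on 20q (ratio 1.12), with 195 genes above. The other autosomes and X had medians from −0.10 (chromosome 18) to 0.09 (chromosome 7) in clone 1 and from −0.15 (chromosome 4) to 0.10 (chromosome 9) in clone 2. Both arms thus lay outside the range of whole chromosomes in clone 1, 20q lay above it in clone 2, and 20p in clone 2 equalled chromosome 4. The other chromosomes were not split by arm, so shifts of their single arms or of shorter stretches do not show in this range. Between the clones, the 20q median was 0.41 higher in clone 2 and the 20p median 0.14 higher, against −0.14 to 0.18 for other chromosomes. The comparisons share libraries and are not independent of each other. These medians are descriptions with no test.

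**Figure D2:**
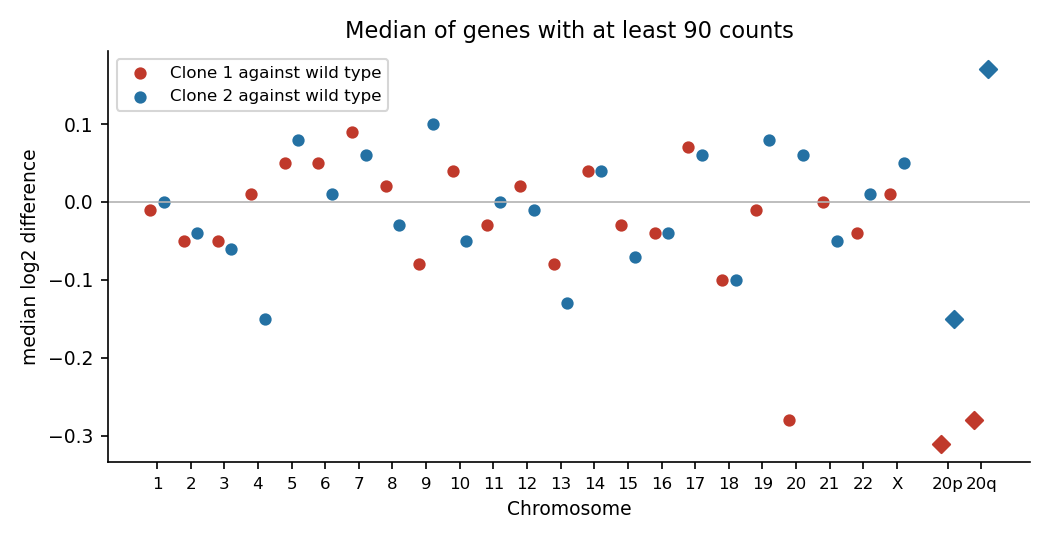
Median log2 difference from wild type of genes with at least 90 counts in clone 1 and clone 2. Circles are whole chromosomes, chromosome 20 included, and diamonds are the arms of chromosome 20. The circles of chromosome 20 are at −0.28 in clone 1 and 0.06 in clone 2. In clone 1 both arms sit near −0.3, and in clone 2 the arms sit at −0.15 and 0.17.

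On 20q the shift was mainly that of well-counted genes, while 20p genes lay below those of other chromosomes in both count classes. Values here are relative to the median of all genes of other chromosomes, whose own genes of each class are given beside them. Among genes with at least 900 counts, the medians in clone 1 were −0.31 for the 96 on 20p and −0.34 for the 214 on 20q, where 10892 genes of other chromosomes had −0.04. In clone 2 they were −0.13 and 0.27 against 0.07. Genes with 90 to 899 counts moved on the other chromosomes too, by 0.20 in clone 1 and −0.29 in clone 2. Beside those values, the 89 such genes of 20q had medians of 0.12 and −0.24, and the 29 of 20p had −0.20 and −0.47. The 36 genes of 20q of other types than protein-coding had 0.28 in clone 1, next to 0.30 for such genes elsewhere. What moved the low-count genes on every chromosome was not tested.

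In clone 1 against wild type, 79 of the 427 tested genes passed edgeR's quasi-likelihood test at an adjusted p under 0.05, 78 lower and 1 higher. The share lower was 18.3%, where 4.10% of all 16921 tested genes were lower, and 1.41% of all were higher. Of the lower genes 25 were on 20p and 53 on 20q, and 15 of the 78 were lower by more than 2-fold. The other called decreases were smaller than that. The 1 gene that rose was SLCO4A1, an organic anion transporter of 20q, with 33.1, 42.7 and 31.6 CPM in wild type and 47.6, 61.5 and 63.4 in clone 1 (log2 fold change 0.68, SE 0.16, adjusted p = 0.0248). For 182 of the 428 genes (42.5%) all 3 clone 1 libraries were below all 3 wild-type libraries, compared with 17.0% of genes with at least 90 counts on all chromosomes. They were above for 16 genes, against 13.1% in that background. FAM65C, with 94 counts, did not enter the test. The count of 79 fell to 35 without wild-type replicate 2, 24 without wild-type replicate 3, and 36, 27 and 18 without clone 1 replicates 1, 2 and 3, with no more than 1 gene higher in any of these fits. Over all tested genes, the share lower fell from 4.10% to 1.72%, 1.19%, 1.64%, 1.35% and 0.913% in the same fits and order. SLCO4A1 was lost without wild-type replicate 1 or 3 or clone 1 replicate 2 or 3 (adjusted p up to 0.129). SLCO4A1 overlaps SLCO4A1-AS1 and RP11-93B14.9 on the opposite strand, and reads of the overlaps cannot be told apart without the strand setting.

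**Figure D3:**
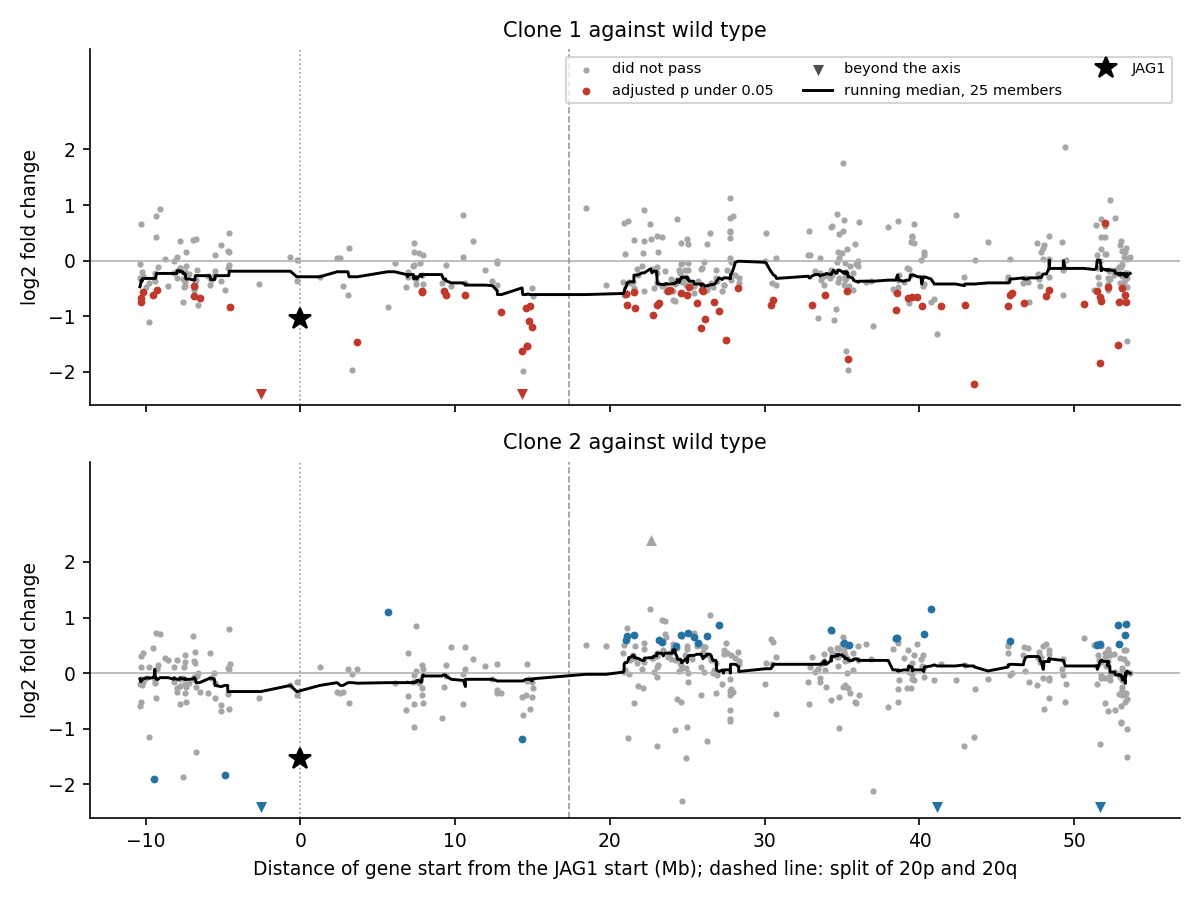
Log2 fold change of the 427 tested chromosome 20 genes in clone 1 and clone 2 against distance from the JAG1 start in Mb, with called genes coloured, values beyond the axis as triangles, JAG1 as a star and a running median of 25 genes. The running median of clone 1 lies near or below 0 along both arms and is lowest near the dashed split of the arms, and that of clone 2 is below 0 around JAG1 and mostly above 0 on 20q.

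In clone 2 against wild type, 33 genes were called, 27 higher and 6 lower, and 26 of the 27 were on 20q. The shares were 6.32% higher and 1.41% lower, where 3.21% and 2.75% of all tested genes were higher and lower. The 1 gene of 20p that rose was KIF16B, a kinesin of early endosomes, with 5.25, 8.12 and 8.04 CPM in wild type and 12.9, 17.9 and 15.2 in clone 2 (log2 fold change 1.10, SE 0.30, adjusted p = 0.041). The 4 lower genes of 20p were PLCB1, CST7, TMEM74B (−1.91, adjusted p = 0.0471) and C20orf196 (−1.83, adjusted p = 0.0438), the last pair named after their values were seen. On 20q, SALL4 and LAMA5 fell. All 3 clone 2 libraries were above all wild-type libraries for 91 genes (21.3%; 15.0% in the background), 83 of them on 20q, and below for 43 (10.0%; 11.5% in the background), 28 of them on 20p. Same-numbered libraries of clone 2 and wild type deviated together. With the replicate number as a block in a fit of all 9 libraries, clone 1 included, 94 genes were called. Of these 67 were higher and 27 lower, against 9.03% and 6.92% of all tested genes. The blocked calls were 65 higher and 11 lower on 20q, and 2 higher and 16 lower on 20p. Without wild-type replicate 1 or 2 or clone 2 replicate 3, higher calls on the chromosome did not outnumber lower ones. Over all tested genes these fits gave 83 higher and 214 lower, 62 and 176, and 75 and 162, in that order. On 20q each of these fits gave 3 higher and 2 lower. The count of 33 fell to 8 (3 higher, 5 lower) and 6 (3 and 3) without wild-type replicates 1 and 2, 17 (14 and 3) without clone 1 replicate 2 and 6 (3 and 3) without clone 2 replicate 3. It was 46 (36 higher, 10 lower) without wild-type replicate 3, 47 (38 and 9) without clone 2 replicate 1 and 39 (26 and 13) without clone 2 replicate 2. KIF16B lost its call without any wild-type library, clone 1 replicate 2, or clone 2 replicate 2 or 3 (adjusted p up to 0.162).

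Set directly against each other, the clones differed at 202 chromosome 20 genes, 174 higher in clone 2 and 28 lower, or 40.7% and 6.56%, where 19.8% and 14.1% of all tested genes were. On 20q 137 were higher and 19 lower, and on 20p 37 were higher and 9 lower. All clone 2 libraries were above all clone 1 libraries for 187 genes (43.7%; 27.0% in the background) and below for 43 (10.0%; 21.3%). The 174 higher genes stayed at 150 or more without any 1 library, and the 28 lower ones fell to 6 without clone 1 replicate 3 and 11 without clone 2 replicate 3.

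Along the chromosome in bins of 4 Mb, clone 1 was below 0 in all 17 bins, from −0.06 to −1.18. The bin from 24 to 28 Mb, at the centromeric end of 20p, had the lowest median, with 11 of 11 genes below 0. No other of 535 bins with at least 10 genes on all chromosomes was lower in clone 1, and the bin was singled out for that after its value was seen. Next on chromosome 20 came 12 to 16 Mb (−0.44, 7 genes), just beyond JAG1, 28 to 32 Mb (−0.39, 12 genes), 36 to 40 Mb (−0.36, 40 genes) and 48 to 52 Mb (−0.36, 32 genes). Of the 535 bins, 34 to 49 were lower in clone 1 than each other 20p bin with at least 10 genes. For such bins of 20q, 8 to 186 were lower. Without the 24 to 28 Mb bin, the 20p median in clone 1 was −0.25, a setting added after the data were seen. In clone 2 the first 5 bins, up to 20 Mb, ran from −0.11 to −0.34, the bin at 20 to 24 Mb had 0.02, with 7 of 14 genes below 0, and the bin at 24 to 28 Mb had −0.40. Beyond the centromere the bins were mostly above 0, with 0.38 at 28 to 32 Mb, 0.27 at 32 to 36 Mb, 0.21 at 36 to 40 Mb, 0.21 at 44 to 48 Mb and 0.27 at 56 to 60 Mb. Not all of 20q was raised. The 12 genes at 40 to 44 Mb had 0.09 and the 32 at 48 to 52 Mb had 0.10. The 57 at 60 to 64 Mb had 0.03 and the 6 at 64 to 68 Mb had 0.01. The 7 genes at 52 to 56 Mb had −0.10. Of the 535 bins, 9 to 213 were higher in clone 2 than each 20q bin with at least 10 genes.

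Around JAG1, 20 genes started within 5 Mb, and JAG1 stood out from most of them. Their median was −0.20 in clone 1 and −0.29 in clone 2, where JAG1 had −1.05 and −1.55. Only PLCB1, MACROD2 and FLRT3 had a lower log2 fold change than JAG1 in clone 1, and only PLCB1 and C20orf196 in clone 2. By the test, 3 of the 20 were lower in clone 1 (FERMT1, PLCB1 and FLRT3) and 2 in clone 2 (PLCB1 and C20orf196), with none higher. The 15% lower in clone 1 was near the 18.3% of chromosome 20 genes, where 4.10% of all genes were lower. In clone 2 it was 10%, beside 1.41% of chromosome 20 genes and 2.75% of all genes. PLCB1, 1 of the 2, entered the chromosome 20 set through its wild-type counts alone. With the replicate block 5 of the 20 were lower in clone 2, where 6.92% of all tested genes were. Those that joined were TMX4 (−0.44, adjusted p = 0.0207), a thioredoxin-related membrane protein, and MKKS (−0.39, adjusted p = 0.0414), a chaperonin-like protein of the primary cilium. NDUFAF5 (−0.59, adjusted p = 0.0274), an assembly factor of respiratory complex I, joined as well.

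The gene nearest to JAG1 on the side of the telomere was SLX4IP, a partner of the SLX4 nuclease scaffold, with 5.93, 9.18 and 9.35 CPM in wild type, 5.28, 6.70 and 7.07 in clone 1 and 6.19, 8.47 and 7.40 in clone 2. Its groups overlapped and neither clone passed (adjusted p = 0.410 and 0.759). BTBD3, a BTB-domain protein and the nearest on the other side, had 32.5, 36.0 and 38.0 CPM in wild type, 28.2, 27.4 and 31.3 in clone 1 and 34.8, 41.7 and 39.5 in clone 2. The clone 1 libraries were below the wild-type libraries without passing (log2 fold change −0.29, adjusted p = 0.235), and the clones differed from each other by 0.42 (adjusted p = 0.0312, lost without wild-type replicate 2 or 3, clone 1 replicate 1 or 2, or clone 2 replicate 2 or 3, up to 0.151). MKKS had 95.2, 99.1 and 86.5 CPM in wild type, 93.5, 87.6 and 101 in clone 1 and 79.4, 74.6 and 60.2 in clone 2. Clone 1 overlapped wild type, and all clone 2 libraries were lower than both.

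FERMT1, which encodes the integrin activator kindlin-1, had 12.9, 9.56 and 17.8 CPM in wild type, 8.91, 7.75 and 5.96 in clone 1 and 15.0, 14.4 and 16.0 in clone 2. It fell in clone 1 (−0.83, SE 0.23, adjusted p = 0.0475) and had 0.17 in clone 2 (adjusted p = 0.690). That call held without wild-type replicate 2 or clone 2 replicate 1 and was lost without any 1 of the other 7 libraries (adjusted p up to 0.307), and with RLE size factors, the GC and length correction or a fit of 6 libraries. FLRT3, a leucine-rich adhesion protein, had 4.66, 5.20 and 5.88 CPM in wild type, 2.54, 1.62 and 1.5 in clone 1 and 6.06, 5.08 and 5.36 in clone 2. It fell by 1.47 in clone 1 (SE 0.29, adjusted p = 0.00966, up to 0.0675 without clone 1 replicate 2 or 3), and clone 2 overlapped wild type. It lies within MACROD2, an ADP-ribose hydrolase gene on the opposite strand, and reads of the overlap cannot be told apart, since no source used here gives the strand setting of the counting. MACROD2 had a log2 fold change of −1.96 in clone 1 (adjusted p = 0.066) and −0.01 in clone 2.

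Among the other neighbours, no clone passed against wild type in the main test. ESF1, a nucleolar factor of ribosomal RNA processing, had −0.61 in clone 1 (adjusted p = 0.0819) and 0.08 in clone 2, and was 0.69 higher in clone 2 than clone 1 (adjusted p = 0.0142, up to 0.106 without clone 1 replicate 2 or clone 2 replicate 3). SPTLC3, a subunit of serine palmitoyltransferase, had 0.05 and −0.33, and ISM1, which encodes the secreted protein isthmin, had 0.04 and −0.36. TASP1, the protease that cleaves MLL, had −0.46 and −0.34. CRLS1, the cardiolipin synthase gene, LRRN4 and ANKEF1 had changes of −0.08, 0.15 and 0.06 in clone 1 and 0.07, 0.79 and −0.22 in clone 2.

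**Figure D4:**
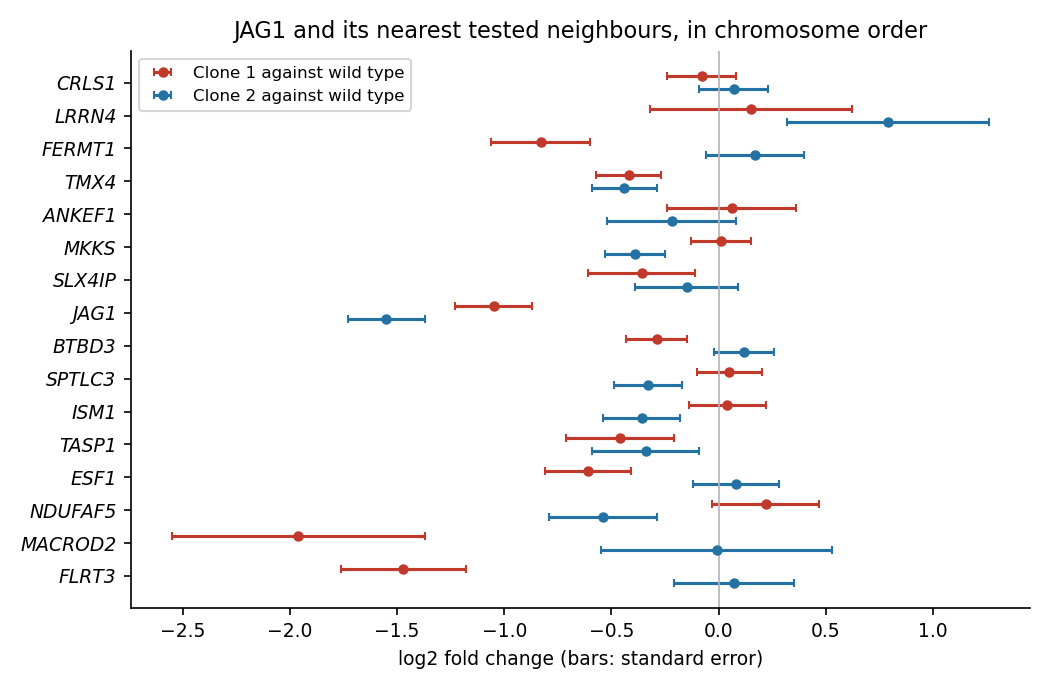
Log2 fold change with its standard error for JAG1 and 15 of its 16 nearest tested neighbours (8 on each side, PLCB1 left out for its near absence in both clones), from top to bottom in chromosome order. JAG1 is the only gene shown whose values are below −1 in both clones.

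PLCB1, which encodes a phospholipase C that G protein-coupled receptors activate, was nearly absent from both clones. Wild type had 1.17, 2.92 and 2.21 CPM, clone 1 had 0.0518, 0 and 0, and clone 2 had 0 in all 3 libraries. Over the 3 libraries of a group wild type had 137 counts, clone 1 had 1 and clone 2 had 0. The ratio of wild type to clone 1 was 125 (95% counting interval 22 to 4956), and clone 2 was at least 41.2-fold lower, taking 3 counts over the group as the limit that 0 allows. Both calls stood in every fit that left out 1 library, with adjusted p of up to 0.0219 in clone 1 and 0.0114 in clone 2. Intervals and limits cover counting error only.

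The 11 genes of the 24 to 28 Mb bin were the lowest stretch of the chromosome in clone 1, with 8 called lower by edgeR and 7 to 9 in every other setting run. In the main test 4.10% of all tested genes and 18.3% of those on chromosome 20 were lower in clone 1. The bin was picked for its low clone 1 values, so a high count of decreases follows from that choice, and the settings share the same data. CST7, the gene of the leukocyte protease inhibitor cystatin F, had 11.5, 17.9 and 17.5 CPM in wild type, 0 in each clone 1 library and 3.77, 8.43 and 8.45 in clone 2. With 0 counts over clone 1 against 1008 in wild type, it was at least 306-fold lower there. In clone 2 it fell by 1.18 (SE 0.31, adjusted p = 0.0382), a call lost without wild-type replicate 2 or 3, clone 1 replicate 2, or clone 2 replicate 1 or 3 (up to 0.156), with the GC and length correction (0.0827), and with 6 libraries (0.0562). CST3, which encodes the secreted inhibitor cystatin C and starts just before the bin, had 154, 157 and 153 CPM in wild type, 76.7, 87.5 and 79.7 in clone 1 and 131, 116 and 116 in clone 2. It fell by 0.93 in clone 1 (SE 0.13, adjusted p = 0.00055), and clone 2, also below all wild-type libraries, did not pass (−0.35, adjusted p = 0.106). CST3 and CST7 were the only cystatins among 11 listed with enough counts.

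APMAP, a membrane protein known from adipocytes, had 193, 144 and 163 CPM in wild type, 61.3, 50.1 and 50.6 in clone 1 and 159, 105 and 108 in clone 2. It fell by 1.63 in clone 1 (SE 0.18, adjusted p = 4.55e-05), and in clone 2 it had −0.42 (adjusted p = 0.147), which passed with the replicate block (−0.44, adjusted p = 0.019). PYGB, the brain form of glycogen phosphorylase, had 168, 166 and 186 CPM in wild type, 65.3, 56.9 and 56.5 in clone 1 and 196, 183 and 201 in clone 2. It fell by 1.54 in clone 1 (SE 0.13, adjusted p = 3.31e-06), and clone 2 overlapped wild type (0.16, adjusted p = 0.497). ABHD12, a lipase of lysophosphatidylserine that overlaps PYGB on the opposite strand, had 44.3, 40.2 and 45.4 CPM in wild type, 13, 15.7 and 16.4 in clone 1 and 41.5, 36.7 and 39.6 in clone 2 (clone 1 −1.53, SE 0.15, adjusted p = 1.12e-05). Only the clone 1 libraries were low for both genes, and reads of their overlap cannot be told apart.

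GINS1, a subunit of the GINS complex of the replicative helicase, had 100, 63.5 and 75.3 CPM in wild type, 42.5, 36.5 and 34.1 in clone 1 and 92.5, 70.2 and 60.7 in clone 2. It fell by 1.08 in clone 1 (SE 0.19, adjusted p = 0.00383). NANP, a phosphatase of sialic acid synthesis, had 28.7, 28.2 and 29.8 CPM in wild type, 12.2, 14.2 and 11.4 in clone 1 and 26.7, 26.3 and 24.7 in clone 2, and fell by 1.20 in clone 1 (SE 0.15, adjusted p = 0.000236). NANP overlaps ZNF337-AS1 on the opposite strand, and reads of the overlap cannot be told apart. ENTPD6, a nucleoside diphosphatase (−0.85, adjusted p = 0.00235), and NINL, a centrosomal protein (−0.82, adjusted p = 0.0434), completed the called genes. Both were named to account for the bin, as were ACSS1, a mitochondrial acetyl-CoA synthetase (−1.98, adjusted p = 0.0568), ZNF337 (−0.64, adjusted p = 0.5) and ZNF337-AS1 (−0.49, adjusted p = 0.689), which did not pass. In clone 2 the main test called CST7 alone of the 11, and the replicate block added APMAP, ENTPD6 (−0.40, adjusted p = 0.032) and NINL (−0.64, adjusted p = 0.0251). CST7, APMAP, PYGB, ABHD12, GINS1 and NANP kept their clone 1 calls without any 1 library, and each was higher in clone 2 than in clone 1 in every such fit.

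**Figure D5:**
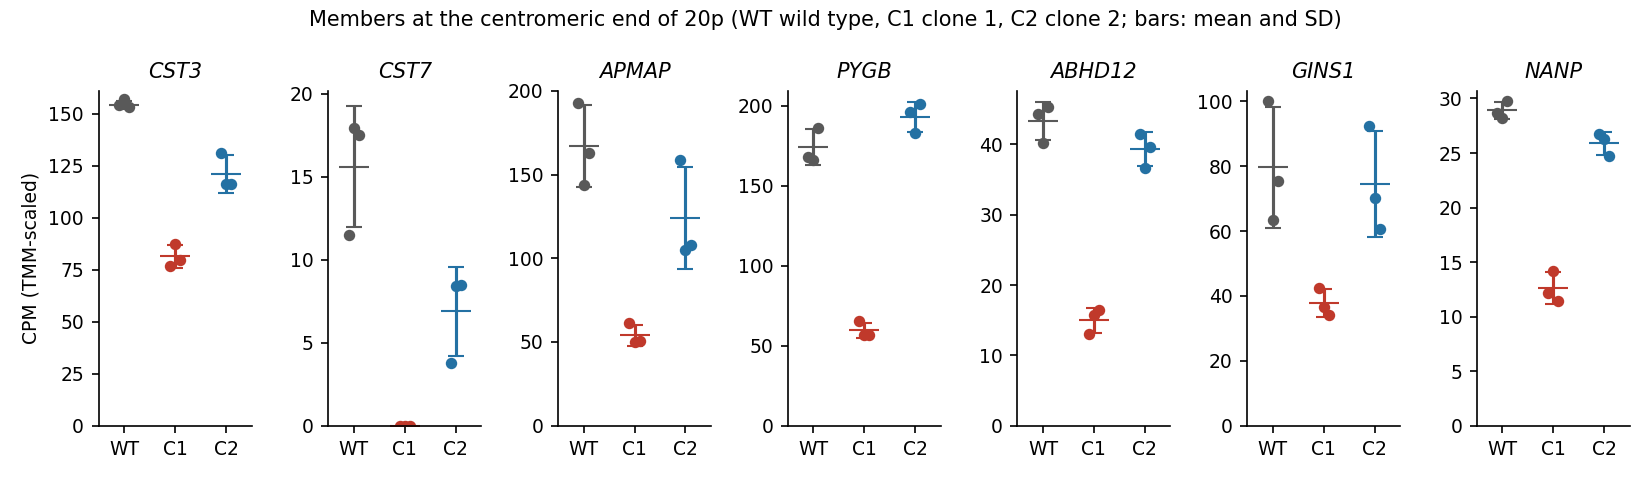
CPM in each library (points) with group mean and SD (bars) of 7 genes at the centromeric end of 20p in wild type (WT), clone 1 (C1) and clone 2 (C2). Every clone 1 library lies below every wild-type and clone 2 library for all 7 genes, and CST7 is at 0 in clone 1.

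Gene lists are described by their counts and medians. Over all chromosome 20 genes tested, 18.3% were lower in clone 1 and 6.32% higher in clone 2, with medians of −0.28 and 0.06. With the replicate block, 67 of the 427 tested genes of chromosome 20 were higher in clone 2 and 27 lower. On 20q these were 65 and 11 of 302, and over all tested genes 9.03% and 6.92%. The blocked counts of each list stand beside these. On 20q, 34 genes often gained in breast cancer were listed and 32 had enough counts. Their median was −0.44 in clone 1 and 0.33 in clone 2, with 12 lower in clone 1 (37.5%) and 6 higher in clone 2 (18.8%). Between the clones, 25 were higher in clone 2 (78.1%), beside 45.4% of tested 20q genes and 19.8% of all tested genes. With the replicate block, 12 of the 32 were higher and 2 lower in clone 2. Over all of 20q, 17.5% of tested genes were lower in clone 1 and 8.61% higher in clone 2, with medians of −0.28 and 0.17. The mitotic kinase gene AURKA (−0.29 and 0.37) and UBE2C, a ubiquitin-conjugating enzyme of mitotic exit (−0.22 and 0.33), passed in neither clone and are given as background genes outside the naming rule. EEF1A2, an elongation factor of translation, had 187, 216 and 227 CPM in wild type, 68.8, 81.2 and 69.7 in clone 1 and 340, 364 and 448 in clone 2. It fell by 1.52 in clone 1 (SE 0.16, adjusted p = 2.74e-05) and rose by 0.87 in clone 2 (SE 0.15, adjusted p = 0.00439), with no overlap between any groups and both calls kept without any 1 library. STAU1, which binds double-stranded RNA in mRNA transport and decay, had 126, 152 and 193 CPM in wild type, 84.4, 86.6 and 84.9 in clone 1 and 226, 230 and 278 in clone 2. It fell by 0.88 (SE 0.16, adjusted p = 0.00584) and rose by 0.64 (SE 0.16, adjusted p = 0.0307, up to 0.150 without wild-type replicate 1 or 2, clone 1 replicate 2 or clone 2 replicate 3, and 0.0828 with 6 libraries). CYP24A1, the enzyme that breaks down active vitamin D, went another way in clone 2. It had 6.85, 3.34 and 4.32 CPM in wild type, 1.55, 0.713 and 0.835 in clone 1 and 1.73, 2.42 and 2.37 in clone 2, for log2 fold changes of −2.22 in clone 1 (SE 0.40, adjusted p = 0.00545) and −1.14 in clone 2 (adjusted p = 0.0801, and 0.0498 with the replicate block).

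Genes of RNA and protein machinery gave 10 of 33 lower in clone 1 (30.3%, median −0.38) and 6 higher in clone 2 (18.2%, median 0.15; 11 higher with the replicate block). PRPF6, a spliceosome component, had 66.0, 78.2 and 101 CPM in wild type, 54.6, 47.0 and 44.9 in clone 1 and 139, 141 and 173 in clone 2. It fell by 0.74 in clone 1 (adjusted p = 0.0175, up to 0.115 without wild-type replicate 3 or clone 1 replicate 2 or 3) and rose by 0.89 in clone 2 (SE 0.16, adjusted p = 0.00586), with no overlap between groups.

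Of 29 genes of replication and division, 10 were lower in clone 1 (34.5%, median −0.43) and 3 higher in clone 2 (10.3%, median 0.29; 7 higher and 2 lower with the replicate block). CTNNBL1, a spliceosome-associated protein placed in this list, had 42.5, 48.0 and 68.4 CPM in wild type, 30.1, 30.1 and 24.9 in clone 1 and 85.6, 90.5 and 112 in clone 2. It fell by 0.90 in clone 1 (adjusted p = 0.00966, up to 0.073 without wild-type replicate 3 or clone 1 replicate 3) and rose by 0.86 in clone 2 (adjusted p = 0.0115, up to 0.073 without wild-type replicate 1 or 2 or clone 2 replicate 3). KIF3B, a subunit of the kinesin-II motor, fell from 74.5 ± 18.5 to 41.4 ± 0.231 CPM in clone 1 (−0.85, adjusted p = 0.00905, up to 0.0634 without wild-type replicate 3 or clone 1 replicate 3). In clone 2 it had 104 ± 12.2 CPM (0.48, adjusted p = 0.0922), which passed with the replicate block (adjusted p = 0.0143).

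Secretory and trafficking genes gave 5 of 26 lower in clone 1 (19.2%) and 2 higher in clone 2 (7.69%; 5 with the replicate block), shares near those of the whole chromosome, with medians of −0.31 and 0.23. CHMP4B, a subunit of the membrane-cutting ESCRT-III complex, had 92.7, 104 and 116 CPM in wild type, 57.5, 67.8 and 57.5 in clone 1 and 149, 145 and 178 in clone 2. It fell by 0.77 in clone 1 (adjusted p = 0.00615, but 0.0506 without clone 1 replicate 3). Its rise of 0.60 in clone 2 (adjusted p = 0.0247) was lost without wild-type replicate 1 or 2 or clone 2 replicate 3 (up to 0.128) and with 6 libraries (0.0634). DNAJC5, a chaperone of exocytosis, had log2 fold changes of −0.62 (adjusted p = 0.03) and 0.68 (adjusted p = 0.0185). Leaving out wild-type replicate 2 or 3, or any clone 1 library, ended its clone 1 call (up to 0.180), as did leaving out wild-type replicate 1 or 2 or clone 2 replicate 3 for its clone 2 call (up to 0.103). RIN2, a guanine nucleotide exchange factor for RAB5 on 20p, fell by 0.54 in clone 1 (adjusted p = 0.0234, up to 0.109 without wild-type replicate 2 or 3 or any clone 1 library).

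For mitochondria and metabolism, 6 of 29 genes were lower in clone 1 (20.7%, near the share of the whole chromosome), PYGB, ABHD12 and NANP among them. In clone 2, 4 were higher (13.8%), and with the replicate block 5 were higher and 4 lower. The medians of the list were −0.31 in clone 1 and −0.09 in clone 2, where that of chromosome 20 was 0.06. NFS1, the cysteine desulfurase of iron-sulfur cluster synthesis, which overlaps ROMO1 on the opposite strand, had 19.7, 18.8 and 22.2 CPM in wild type, 20.3, 17.6 and 16.5 in clone 1 and 34.8, 29.5 and 35.5 in clone 2. It rose by 0.72 in clone 2 (adjusted p = 0.015, up to 0.0945 without wild-type replicate 1 or 2 or clone 2 replicate 3), and clone 1 overlapped wild type. TOMM34, a co-chaperone of mitochondrial protein import that overlaps PABPC1L on the opposite strand, rose from 141 ± 18.9 to 241 ± 34.1 CPM (0.77, adjusted p = 0.00971, and 0.0655 without wild-type replicate 2). MOCS3, a sulfurtransferase of molybdenum cofactor synthesis, rose from 14.7 ± 0.916 to 24.1 ± 5.93 CPM in clone 2 (0.71, adjusted p = 0.0353). It did not pass without any 1 of the wild-type libraries, clone 1 replicate 2, or clone 2 replicate 1 or 3 (up to 0.158), and with 6 libraries (0.0775).

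Among 36 transcription factors, 8 were lower in clone 1 (22.2%, median −0.41), and in clone 2 2 were higher (5.56%) and 1 lower (median 0.08; 8 higher and 1 lower with the replicate block). NFATC2, a calcineurin-dependent factor, had 9.23, 9.90 and 13.4 CPM in wild type, 7.10, 5.85 and 6.40 in clone 1 and 19.2, 19.0 and 34.5 in clone 2. It rose by 1.16 in clone 2 (SE 0.24, adjusted p = 0.0118, up to 0.0915 without wild-type replicate 1 or 2 or clone 2 replicate 3) and had −0.75 in clone 1 (adjusted p = 0.086). SALL4, a stem cell factor, was low in every group, with 3.55, 3.26 and 3.52 CPM in wild type, 1.29, 1.05 and 1.84 in clone 1 and 0.495, 0.387 and 0.759 in clone 2. It fell by 2.63 in clone 2 (SE 0.43, adjusted p = 0.00239, called without any 1 library), and clone 1 had no overlap with wild type but did not pass (−1.31, adjusted p = 0.0642). ZFP64, a zinc finger factor, fell by 0.81 in clone 1 (adjusted p = 0.00623, and 0.0507 without clone 1 replicate 3).

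Among 18 kinase and signalling genes, 6 were lower in clone 1 (33.3%, median −0.42). In clone 2 PLCB1, kept through its wild-type counts alone, was lower, and the median of the list was 0.17. With the replicate block 3 were higher and 2 lower in clone 2. The tyrosine kinase SRC had 52.8, 54.4 and 56.5 CPM in wild type, 31.2, 31.5 and 35.1 in clone 1 and 49.7, 55.8 and 65.1 in clone 2. It fell by 0.74 in clone 1 (SE 0.14, adjusted p = 0.00661, and 0.0502 without clone 1 replicate 2), and clone 2 overlapped wild type. PTPN1, a tyrosine phosphatase of insulin signalling, fell by 0.66 in clone 1 (adjusted p = 0.0337, up to 0.219 without wild-type replicate 2 or 3 or any clone 1 library) and had 0.53 in clone 2 (adjusted p = 0.07, and 0.00735 with the replicate block).

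Of 5 listed genes tied to Notch, 3 had enough counts. ITCH, a ubiquitin ligase that acts on Notch among other proteins, fell by 0.55 in clone 1 (adjusted p = 0.0439), but not without wild-type replicate 2 or 3, any 1 of the clone 1 libraries or clone 2 replicate 2 (up to 0.258), or with RLE size factors (0.0523). POFUT1, which fucosylates Notch receptors, had 241, 163 and 228 CPM in wild type, 164, 148 and 137 in clone 1 and 309, 221 and 238 in clone 2, and passed in neither clone (−0.49 and 0.28). SNAI1, a repressor of E-cadherin, had −0.77 (adjusted p = 0.0684) and 0.03. All 3 were higher in clone 2 than in clone 1, by 0.84 for ITCH, 0.78 for POFUT1 and 0.80 for SNAI1 (the last lost without clone 1 replicate 3 or clone 2 replicate 3, up to 0.0782). They lie on 20q, where 45.4% of tested genes were higher in clone 2 than in clone 1.

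Matrix and adhesion genes gave 6 of 19 lower in clone 1 (31.6%, median −0.22), and in clone 2 LAMA5 was lower (median 0.07; 3 higher and 2 lower with the replicate block). TGM2, the crosslinking enzyme transglutaminase 2, which overlaps RPRD1B on the opposite strand, had 254, 327 and 386 CPM in wild type, 128, 120 and 113 in clone 1 and 399, 456 and 563 in clone 2. It fell by 1.42 in clone 1 (SE 0.18, adjusted p = 0.000236) and, with all clone 2 libraries above wild type, had 0.55 in clone 2 (adjusted p = 0.0717, and 0.0133 with the replicate block). LAMA5, the laminin alpha 5 chain, was lower in both clones, with 39.2, 91.8 and 49.9 CPM in wild type, 12.5, 17.5 and 20.7 in clone 1 and 2.78, 10.6 and 7.50 in clone 2. No clone library reached the lowest wild-type library. The log2 fold change was −1.84 in clone 1 (SE 0.43, adjusted p = 0.0415). In clone 2 it was −3.10 (SE 0.46, adjusted p = 0.00664). Clone 1 did not pass without wild-type replicate 2 or 3, any 1 of the clone 1 libraries or clone 2 replicate 3 (up to 0.156) and with no filter on low counts (0.154), nor clone 2 without its replicate 3 (0.0961). LAMA5 overlaps ADRM1, which rose in clone 2, on the opposite strand. PLCB1, CST7 and LAMA5 were the 3 genes called lower in both comparisons with wild type, which share the wild-type libraries. Of these, PLCB1 had been kept through its wild-type counts alone. Another 15 genes were called lower in clone 1 and higher in clone 2, EEF1A2, STAU1, PRPF6, CTNNBL1, CHMP4B and DNAJC5 among them.

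A smaller set of 20q genes differed between the clones in the direction opposite to the median of the arm. Of those named here, SLCO4A1 alone passed against wild type in the main test, in clone 1. SLCO4A1, lower in clone 2 only with the replicate block (−0.53, adjusted p = 0.0119), was 1.22 lower in clone 2 than in clone 1 (adjusted p = 0.000107). PABPC1L, a poly(A)-binding protein of oocytes, had 85.0, 73.6 and 40.8 CPM in wild type, 109, 86.5 and 106 in clone 1 and 40.5, 75.3 and 27.4 in clone 2. Every clone 1 library was above every wild-type and clone 2 library, and the clones differed by −1.07 (adjusted p = 0.0389, up to 0.144 without wild-type replicate 2, clone 1 replicate 1 or 3, or clone 2 replicate 1 or 3). SPAG4, a nuclear envelope protein of sperm (−1.35), ARHGAP40 (−1.14) and L3MBTL1, a chromatin reader (−1.08), were also lower in clone 2 than in clone 1. In clone 1 against wild type, PABPC1L, ARHGAP40 and L3MBTL1 had 0.60, 0.80 and 0.53 (adjusted p = 0.348, 0.136 and 0.315). In clone 2 they had −0.48, −0.34 and −0.55 (adjusted p = 0.446, 0.546 and 0.283). SPAG4 had 0.39 in clone 1 (adjusted p = 0.592) and −0.96 in clone 2 (adjusted p = 0.161). The clone 2 value of SPAG4 passed with the replicate block (−1.05, adjusted p = 0.0145). The calls between the clones were lost for SPAG4 without clone 1 replicate 2 or 3 or clone 2 replicate 1 or 3 (up to 0.0856), for ARHGAP40 without clone 1 replicate 3 (0.0544) and for L3MBTL1 without clone 2 replicate 3 (0.0575). Of the 16 listed genes for whey acidic protein domains, a cluster on 20q, 5 had enough counts and 0 were called by edgeR or DESeq2 in either clone (2 at an unadjusted p under 0.05 in clone 1 and 1 in clone 2, with either tool). With the replicate block WFDC2 passed in clone 2, with 2.87, 5.29 and 4.73 CPM in wild type, 3.78, 3.52 and 5.96 in clone 1 and 2.16, 1.89 and 2.47 in clone 2 (−0.97, adjusted p = 0.0387). ARHGAP40 and WFDC2 were in the class of 90 to 899 counts. On other chromosomes that class had medians of 0.20 in clone 1 and −0.29 in clone 2.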

How the data were processed

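Bulk RNA-seq was made from total RNA of 9 samples, 3 each of wild type, clone 1 and clone 2, as paired-end libraries per the labels' protocols. The authors deposited whole-number read counts per gene symbol, unnormalized, in 2 tables that hold the same wild-type columns; the submitters' processing notes name STAR, featureCounts, Subread, DESeq2 and GRCh38, with no versions, and the strand setting is not given in the sources used here. Genes were placed by the tables' own coordinates, and types and GC came from GENCODE 29 (402 of 428 genes matched, 10 by an older symbol). Overlaps came from the same coordinates as the positions, and only overlaps with genes of at least 90 counts were sought. Counts were tested with edgeR 4.0.16 (R 4.3.3; quasi-likelihood, TMM, filterByExpr minimum count 10, all 9 libraries as 3 groups), with Benjamini-Hochberg adjustment over 16921 tested genes. A gene is called at an adjusted p under 0.05. Medians use log2 CPM with a prior count of 2, less the median of other chromosomes; that median was −0.017 in clone 1 and 0.003 in clone 2. Alternatives were RLE size factors, no filter, a replicate block, a GC and length correction, 6 libraries, DESeq2 1.42.0 and leaving out each library. Deviations of same-numbered clone 2 and wild-type libraries from their group means correlated at 0.223, 0.269 and 0.246 over genes, all above 0.1, so these numbers were taken to pair them and blocked values stand beside clone 2 results they change; the labels do not say what a number marks. For clone 1 and wild type the correlations were 0.245, 0.082 and −0.097, and clone 1 replicate 3 reached 0.215 with wild-type replicate 2. The pairing was read from these same data. The block was fitted on all 9 libraries, so clone 1, whose pairing is not established, also entered the blocked clone 2 values. On simulated data for clone 1 against wild type (16473 genes), edgeR recovered 32% of 1.5-fold, 58% of 2-fold and 90% of 4-fold changes. Genes named in the text are JAG1, its 8 nearest tested neighbours on each side, and the largest called changes per clone (at least 5 CPM, no overlap) and between clones. Genes called in both clones in the same direction and up to 3 of smallest p per gene list were also named. Others are said to be named after their values were seen. The members, lists and tests were chosen with earlier results of these data known.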

Additional observations from a re-analysis of the deposited data

Results flagged for a closer look

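These genes are listed because the 2 clones, meant to carry the same knockout, differed from each other by a direct edgeR test (adjusted p under 0.05). This was so for 40 of the 54 named chromosome 20 genes, 31 higher and 9 lower in clone 2, and for JAG1 (log2 difference −0.50, clone 2 lower, adjusted p = 0.0398, up to 0.172 without clone 1 replicate 1 or 3 or clone 2 replicate 3). CST7, at 0 in clone 1, was at least 139-fold higher in clone 2. The log2 differences above 1.3 were those of EEF1A2 (2.39), TGM2 (1.97), KIF16B (1.95), MACROD2 (1.95), NFATC2 (1.91), CTNNBL1 (1.76), PYGB (1.70), PRPF6 (1.63), FLRT3 (1.54), STAU1 (1.52), ABHD12 (1.39), CHMP4B (1.37) and KIF3B (1.32). Smaller ones were those of DNAJC5 (1.3), APMAP (1.20), PTPN1 (1.19), MOCS3 (1.14), NANP (1.04), FERMT1 (1.00), GINS1 (0.98), ZFP64 (0.98), TOMM34 (0.94), NFS1 (0.88), ITCH (0.84), SRC (0.80), SNAI1 (0.80), POFUT1 (0.78), ESF1 (0.69), CST3 (0.57) and BTBD3 (0.42). The genes lower in clone 2 were SPAG4 (−1.35), SALL4 (−1.33), SLCO4A1 (−1.22), ARHGAP40 (−1.14), L3MBTL1 (−1.08), PABPC1L (−1.07), WFDC2 (−1.02), NDUFAF5 (−0.75) and MKKS (−0.40). Of the 41 calls, JAG1 included, 28 stood in every fit that left out 1 library. Because the naming rule takes genes by their changes, these counts describe the named genes and not the chromosome.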

How the results depend on the processing

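No median or called gene named here changed sign in any alternative. For genes called in clone 1 (79), the replicate block gave 137 (133 lower, against 9.28% of all genes), the block with the GC and length correction 128, and leaving out each library 18 to 88. Same-numbered clone 1 and wild-type libraries did not all deviate together, so this pairing is not established. For clone 2 (33), no filter on low counts gave 51 (35 higher, 16 lower), the block 94, the block with the GC and length correction 101, a fit of 6 libraries 11 (8 higher, 3 lower), DESeq2 64 (49 higher, 15 lower) and leaving out each library 6 to 47. Between the clones (202), the total stayed within 1.5 times in every alternative, at 156 to 200 without 1 library; the 28 lower genes among them ran from 6 to 40.

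The 20p median in clone 1 (−0.31) was −0.27 with at least 900 counts, −0.40 as a mean, −0.26 with the GC and length correction, −0.27 for protein-coding genes, −0.32 without subtraction, −0.25 without the 24 to 28 Mb bin and −0.31 to −0.28 without 1 library. That of 20q (−0.28) was −0.30 with at least 900 counts, −0.21 as a mean, −0.25 with the GC and length correction and −0.29 to −0.26 without 1 library. In clone 2, 20p (−0.15) was −0.19, −0.12 (mean), −0.17 (GC and length), −0.17 (protein-coding), −0.13 (without the bin) and −0.18 to −0.13, and 20q (0.17) was 0.20, 0.15 (mean) and 0.14 to 0.19. Between the clones, 20p (0.14) was 0.10, 0.29 (mean), 0.08 (GC and length), 0.11 (protein-coding), 0.11 (without the bin) and 0.13 to 0.21, and 20q (0.41) was 0.49, 0.36 (mean), 0.46 (protein-coding) and 0.37 to 0.48; the first value in each run is with at least 900 counts, relative to genes of other chromosomes in that class, the last range without 1 library. The causes were not tested. JAG1 between the clones (−0.50) ran from −0.63 to −0.37 without 1 library. The block changed no named call of clone 2 against wild type other than those given, and, in the 9 fits without 1 library, 13 of 27 named calls in clone 1 and 5 of 16 in clone 2 stood throughout. Depth limits genes near 90 counts, whose values carry the widest counting error.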
